A study of Mus musculus with 12 samples.

Results

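The cytosolic ribosomal protein genes encode the proteins of the large and small subunits of the ribosome that translates nuclear mRNA. Members were the protein-coding genes whose mouse symbol is Rpl, Rps or Rplp followed by a number and at most one letter a, x or l. The annotation held 79 such genes, of which 77 had a row among the 24187 genes of the count table (47 of the large and 30 of the small subunit). All 77 passed the filter on low counts and were tested among 22581 genes. Rpl10l and Rpl39l, testis-enriched paralogs, were not analysed here.

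The study asked whether human alternatively activated macrophages (hAAMs) alter paracetamol (APAP) liver injury in mice. Liver RNA of 12 C57BL/6J mice, 10 to 12 weeks old, was depleted of ribosomal RNA and sequenced in bulk. The experimental design section of the paper names the injected mice C57BL6/JOlaHsd instead. Of these, 3 control mice had no injury and no treatment, 5 mice received APAP and the vehicle PBS, and 4 received APAP and hAAMs. The labels give the dose as 350 mg/kg, whereas the figure of the paper that shows these livers describes a severe model at 500 mg/kg. By the methods, APAP was injected intraperitoneally after 12 h of fasting, and cells or vehicle followed 16 h later. Livers were taken at 36 h by the methods and 32 h by the legend of that model. The hAAMs were human blood monocyte-derived cells matured with CSF1 and polarised with IL-4 and IL-13. The sex of the sequenced mice and the cell number they received are not given for the libraries singly, and the mice have an intact immune system.

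Each ribosome holds 1 copy of most of these proteins, and growing cells make them in matched amounts. Their mRNAs belong to the TOP class, in which a terminal oligopyrimidine tract at the start of the transcript couples translation to mTOR signalling and to the RNA-binding protein Larp1. In liver, synthesis of ribosomes accompanies regrowth after injury or resection. Most of these genes also have many processed pseudogenes, copies of their spliced mRNA scattered over the genome, so short reads may not be assigned to one locus.

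Total counts ranged from 60870399 to 74056505 in control, 50859599 to 61826952 in vehicle-treated and 47391650 to 55379420 in hAAM-treated livers. Levels are given as CPM, counts scaled to a common library total with TMM, whose factors were 0.832 to 0.859 in control and 0.933 to 1.14 in APAP livers. Scaling by total count alone moved the all-gene median of the log2 fold change to 0.36 with vehicle and 0.32 with hAAM, from 0.01 and 0.02 with TMM. The libraries of vehicle replicate 3 and hAAM replicate 4, labelled as different treatments, differed by only 1.19 times counting noise, whereas the other 35 pairs of APAP livers differed by 2.61 to 6.94 times. Hepatocyte markers were high in every liver, with summed levels of 74500 to 106000 CPM in control and 76700 to 115000 CPM in APAP livers.

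On average, ribosomal protein mRNA was higher in APAP livers than in control livers for both subunits. The summed level of the 47 large subunit genes was 5452, 4989 and 4880 CPM in control replicates 1 to 3. It was 5954, 5670, 5370, 6057 and 6037 CPM in vehicle replicates 1 to 5, and 6413, 6180, 5731 and 5374 CPM in hAAM replicates 1 to 4. Vehicle replicate 3 and hAAM replicate 4, the near-identical pair, were the lowest of their groups and fell below the highest control liver. The 30 small subunit genes summed to 3394, 3154 and 3004 CPM in control, to 3751, 3574, 3383, 3843 and 3807 CPM with vehicle, and to 4046, 3943, 3556 and 3389 CPM with hAAM. Here too the same pair lay just under control replicate 1. The group means were 5107 ± 304 (SD, n = 3), 5818 ± 294 (n = 5) and 5924 ± 464 CPM (n = 4) for the large, and 3184 ± 197, 3672 ± 192 and 3734 ± 312 CPM for the small subunit. The ratio of small to large stayed within 0.616 and 0.638 in all 12 livers. Unscaled, all members together took 0.656% to 0.746% of the counts of control livers and 0.866% to 1.15% of those of APAP livers, with no overlap. These sums are descriptions and were not tested.

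**Figure D1:**
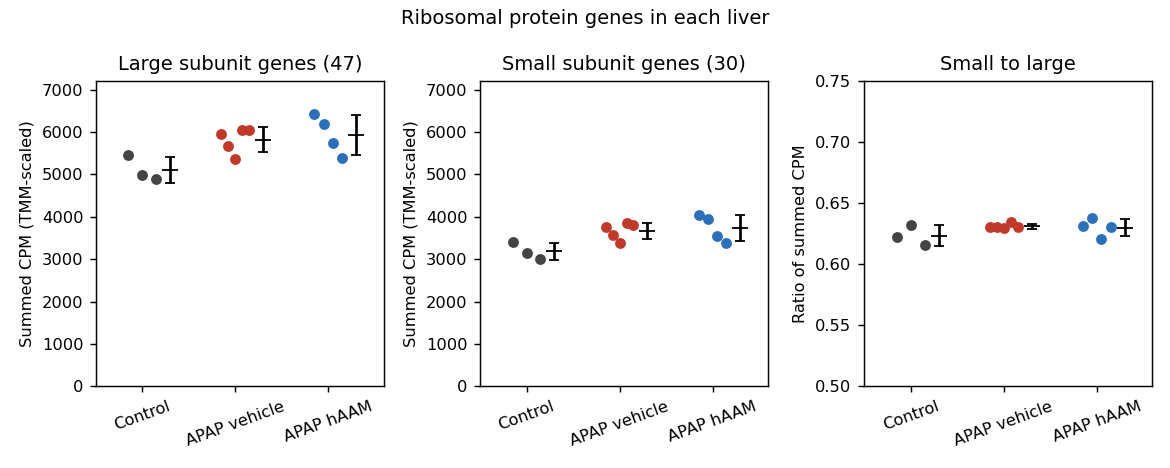
Summed TMM-scaled CPM of large and small subunit genes and their ratio in each liver, with the mean and SD of each group beside the points; the axis of the ratio does not start at 0. Group means of the large subunit rise from 5107 CPM in control to 5818 and 5924 CPM in the APAP groups, while the ratio stays between 0.616 and 0.638.

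Members deviated from their group mean together. Among control livers, replicate 1 held the highest level of 69 of 77 members and replicate 3 the lowest of 60. Vehicle replicate 3 was the lowest of its group for 67 members, and hAAM replicate 4 for 63. The median log2 deviation of members from their group mean was small, from -0.132 in hAAM replicate 4 to 0.112 in hAAM replicate 1. How often these livers were highest or lowest over all genes is not given here, so the pattern may not be particular to members. The median coefficient of variation of members was 6.62% in control, 6.30% with vehicle and 8.51% with hAAM, against 8.92%, 9.11% and 11.3% over all genes at a mean log2 CPM of 2 or more.

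Against control livers, vehicle-treated livers had higher levels of 23 members and a lower level of 1, Rpl13a, at an FDR under 0.05 (edgeR quasi-likelihood test, adjusted over all genes). The 23 are 29.9% of members, where 15.0% of all genes tested were higher (29.8% were called in either direction). By subunit, 14 of 47 large and 9 of 30 small subunit genes were higher. The estimate was positive for 75 of 77 members, against 51.0% of all genes, and the exceptions were Rpl13a and Rpl22. The median log2 fold change was 0.20 for either subunit, a fold of 1.15, and 0.01 over all genes. The 22 members called higher at a mean log2 CPM of 2 or more differed 1.17-fold to 1.45-fold, and 31 members had all 5 vehicle-treated livers above all control livers, where 17.5% of all genes did. Rpl13a lay below in all 5, as 17.3% of all genes did. At an unadjusted p under 0.05, 44 members differed, against 41.8% of all genes. Counts of calls moved with single livers: 9 and 4 members were called without control replicate 2 or 3 (11.7% and 5.19% of members, against 23.2% and 20.1% of all genes in either direction). Without vehicle replicate 1, 4 or 5, 13, 11 and 12 were called (14.3% to 16.9%, against 23.1% to 25.4% of all genes). Without both near-identical libraries 35 were called, all higher, with a median of 0.24 (45.5%, against 30.0% of all genes). DESeq2 called 36, where it called 34.0% of all genes. Scaling by total count called 74, all higher, with a median of 0.55, where 38.2% of all genes were higher.

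With hAAM, 20 members were higher than in control and 0 were lower, 13 of the large and 7 of the small subunit. The 20 are 26.0% of members, where 10.7% of all genes tested were higher (20.7% were called in either direction). The estimate was positive for 75 of 77, against 51.5% of all genes, and the exceptions were Rpl13a and Rps10. The median log2 fold change was 0.23 (1.17-fold), and 0.02 over all genes. All 4 hAAM-treated livers lay above all control livers for 31 members, as for 14.3% of all genes. At an unadjusted p under 0.05, 48 members differed, against 35.2% of all genes. The count fell to 8 and 3 without control replicate 2 or 3 (10.4% and 3.90% of members, against 15.0% and 10.5% of all genes in either direction) and to 7 without hAAM replicate 1 or 2 (9.09%, against 12.5% and 13.1%). It rose to 34 without hAAM replicate 4 (44.2%, against 19.7%). It was 32 without both near-identical libraries (41.6%, against 19.6%) and 2 when only these groups were fitted (2.60%, against 12.7%). DESeq2 called 37 members and 25.8% of all genes. By total count 73 were higher (median 0.53), as were 29.0% of all genes.

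Both comparisons use the same 3 control livers, so their calls are not independent. Of the members, 15 were called higher in both: Rpl3, Rpl3l, Rpl12, Rpl14, Rpl30, Rpl32, Rpl34, Rpl35, Rpl38, Rps6, Rps12, Rps16, Rps20, Rps23 and Rps25. The calls with vehicle alone included Rpl8, Rpl11, Rpl13, Rpl27, Rplp2, Rps13 and Rps19, besides the lower Rpl13a. Rpl5, Rpl17, Rpl23, Rpl36a and Rps27a passed with hAAM alone. Neither comparison called the other 48. The shares of all genes called in both or in neither are not given here, so these counts cannot be set against them. When each of the 12 livers was left out in turn, Rpl12 and Rpl3 were called in both comparisons in all 12 fits, and Rpl14 in all 12 with vehicle.

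**Figure D2:**
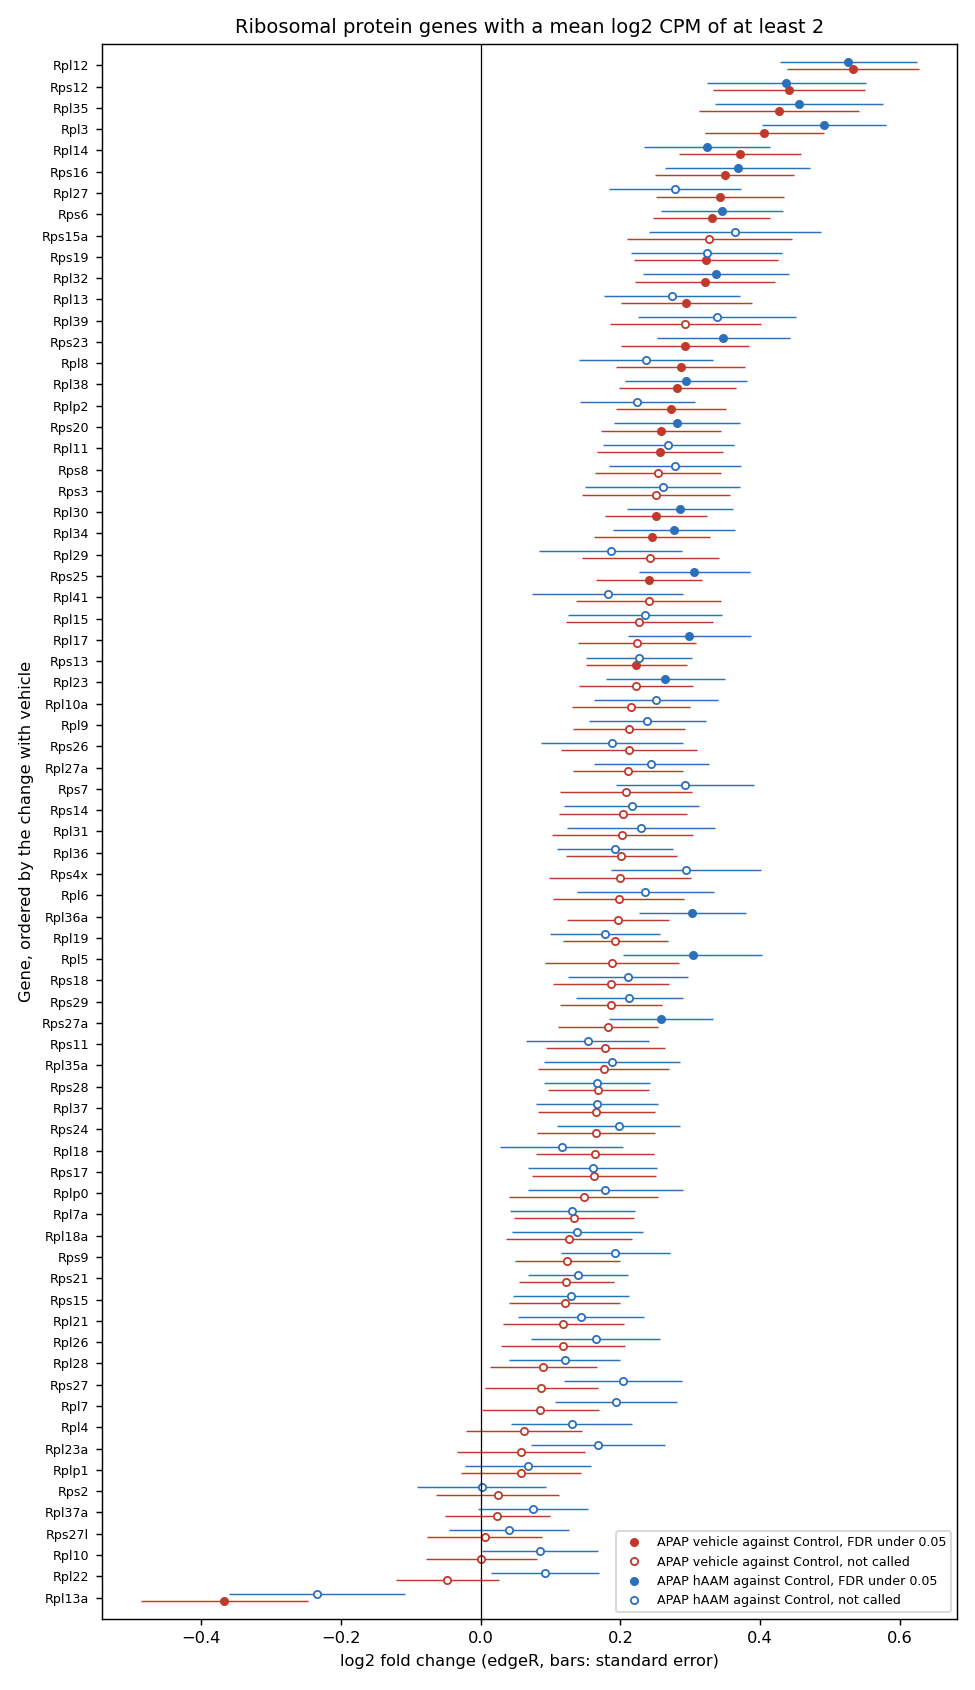
Log2 fold change against control, with its standard error, of the 74 members at a mean log2 CPM of 2 or more (1 is not shown), for vehicle-treated (red) and hAAM-treated (blue) livers; filled points passed an FDR of 0.05. Nearly all points lie right of 0, from Rpl12 at 0.53 in both comparisons down to Rpl13a at -0.37 and -0.23.

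Of the large subunit, Rpl12, Rpl35, Rpl3 and Rpl14 had the largest estimates with vehicle among members at a mean log2 CPM of 2 or more. Rpl12, which forms the base of the ribosomal stalk, is encoded at chr2:32961559-32965345 (GRCm38, plus strand). Its level was 103, 89.7 and 84.9 CPM in control livers, 136, 128, 123, 140 and 143 CPM with vehicle and 142, 145, 122 and 124 CPM with hAAM. Every APAP liver was above every control liver, and the log2 fold change was 0.53 in both (SE 0.094, FDR 0.00203 with vehicle; SE 0.098, FDR 0.00465 with hAAM). Rpl3, which reaches towards the peptidyl transferase centre, stood at 192, 168 and 155 CPM in control livers. It stood at 231, 224, 221, 233 and 229 CPM with vehicle and at 251, 246, 249.8 and 220.0 CPM with hAAM. The groups again did not overlap, with log2 fold changes of 0.41 (SE 0.085, FDR 0.00478) and 0.49 (SE 0.089, FDR 0.00405).

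Rpl35, a protein at the exit of the nascent chain tunnel, had 32.5, 31.2 and 27.2 CPM in control, 43.7, 39.5, 35.9, 43.2 and 41.2 CPM with vehicle and 50.6, 42.6, 36.6 and 36.3 CPM with hAAM. All APAP livers were higher than all control livers (log2 fold change 0.43, FDR 0.016, and 0.46, FDR 0.0206). Of its exon bases, 66.2% overlap genes on the other strand, and the strand setting of the counting is not given, so reads of those neighbours cannot be told apart. Rpl14 rose by 0.37 (FDR 0.00824) and 0.32 (FDR 0.0265), from 95.1 to 107 CPM in control to 120 to 143 CPM with vehicle and 119 to 136 CPM with hAAM.

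In the small subunit, Rps12, a protein of the beak of that subunit, was 116, 111 and 101 CPM in control, 149, 142, 130, 160 and 161 CPM with vehicle and 169, 159, 131 and 132 CPM with hAAM. No APAP liver reached down to the controls, and the log2 fold change was 0.44 in both (FDR 0.0108 and 0.0195). Rps16, whose tail contacts tRNA, rose by 0.35 (FDR 0.0208) and 0.37 (FDR 0.0273), with 106 to 125 CPM in control and 131 to 166 CPM in APAP livers. Rps6, the protein phosphorylated by S6 kinase downstream of mTOR, was 193, 182 and 173 CPM in control, 232, 227, 213, 237 and 240.1 CPM with vehicle and 249, 245, 223 and 211 CPM with hAAM, again without overlap. Its log2 fold changes were 0.33 (FDR 0.0119) and 0.35 (FDR 0.0172). Rps15a, by contrast, had estimates of 0.33 and 0.36 that did not pass (FDR 0.0533 and 0.0537), and the vehicle group overlapped the control group at 51.6 against 51.7 CPM.

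**Figure D3:**
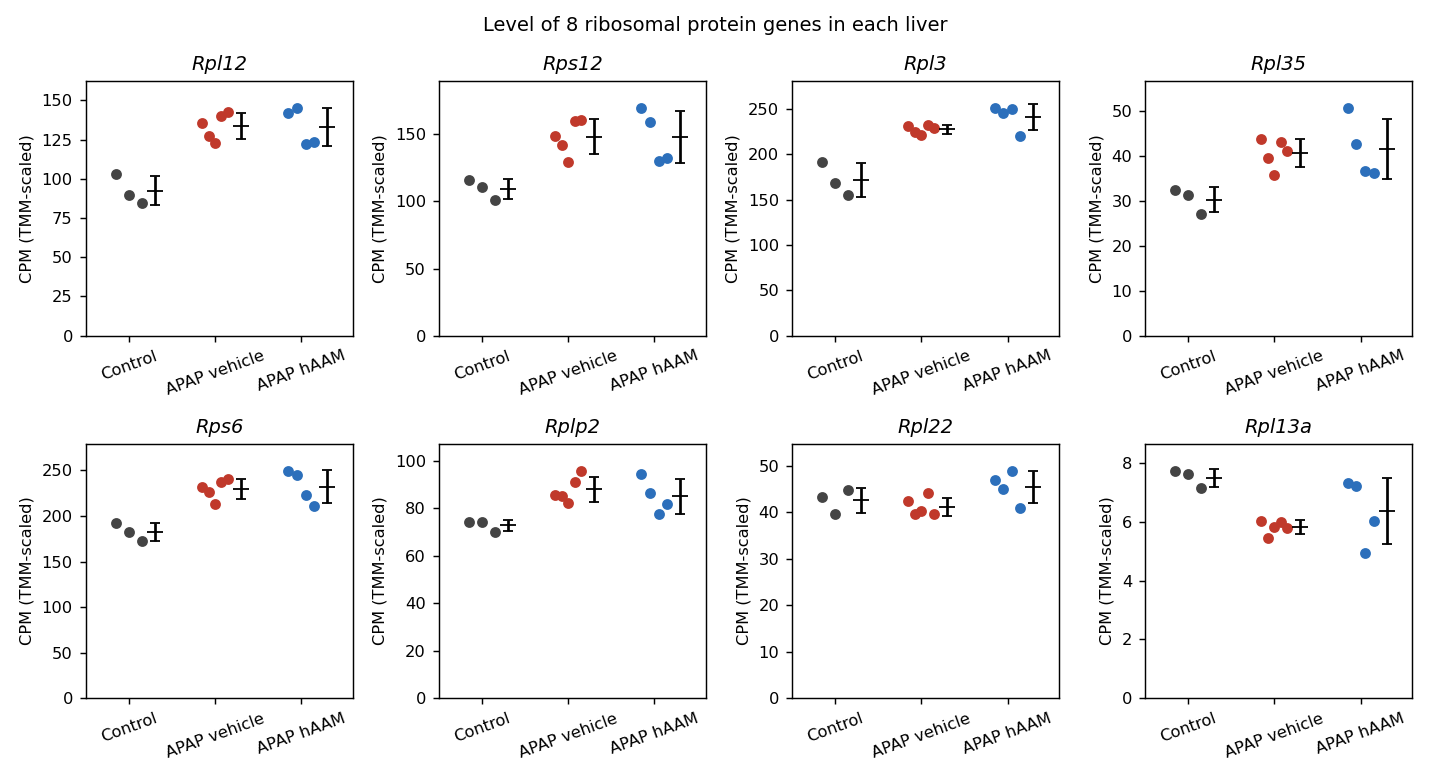
TMM-scaled CPM of 8 members in each liver, with the mean and SD of each group beside the points. Rpl12, Rps12, Rpl3, Rpl35, Rps6 and Rplp2 lie higher in all APAP livers than in control livers, Rpl22 overlaps in all groups, and Rpl13a lies lower in the 5 vehicle-treated livers (5.43 to 6.02 CPM) than in control livers (7.13 to 7.72 CPM).

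The starts that RefSeq annotates are shown because the TOP tract begins there. RefSeq promoter windows (GRCm38.p6, 250 bases before to 50 after the start) matched 57 of 77 members, in 69 windows. Each line gives the 30 bases centred on the start, 5′ to 3′ on the gene's strand, with the longest run of C and T in capitals. Where runs tie, as at the upstream start of Rpl22, the first is marked. Rpl12, Rpl35, Rps12, Rpl14, Rps6, Rps16 and, with vehicle, Rpl11 were among the members that rose, and Rpl13a and Rpl22 were those with a negative estimate with vehicle.
Rpl12 (chr2:32961697-32961726, plus): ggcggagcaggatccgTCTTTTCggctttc
Rpl35 (chr2:39005117-39005146, minus): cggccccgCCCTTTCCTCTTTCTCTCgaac
Rps12 (chr10:23787195-23787224, minus): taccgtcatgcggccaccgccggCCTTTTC
Rpl14 (chr9:120571502-120571531, plus): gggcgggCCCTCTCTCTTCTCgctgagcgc
Rps6 (chr4:86857353-86857382, minus): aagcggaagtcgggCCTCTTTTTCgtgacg
Rps16 (chr7:28350674-28350703, plus): cccgCTTCTgtcgtgacgtagcactcaatg
Rpl11 (chr4:136053379-136053408, minus): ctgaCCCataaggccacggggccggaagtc
Rpl13a (chr7:45128731-45128760, minus): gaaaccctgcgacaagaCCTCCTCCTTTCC
Rpl22, upstream start (chr4:152324421-152324450, plus): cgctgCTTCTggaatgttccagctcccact
Rpl22, downstream start (chr4:152325711-152325740, plus): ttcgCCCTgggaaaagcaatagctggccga

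The run was 18 bases long in Rpl35, 14 in Rpl14, 13 in Rpl13a, 10 in Rps6, 7 in Rpl12 and in Rps12, 5 in Rps16, 3 in Rpl11, and 5 and 4 at the upstream and downstream start of Rpl22. Runs were measured within the 30 bases only. Those of Rpl13a and Rps12 reach the last base, so their lengths are lower limits. The downstream window of Rpl22 is the one that lies next to its GENCODE start, chr4:152325742. A run of at least 7 was found in 47.8% of member windows and in 18.6% of all 32851 windows, with median longest runs of 6 and 4 bases. Long and short runs both stood in genes that rose, such as Rpl35 and Rps16, and in genes that did not, Rpl13a and Rpl22. In the whole windows, on either strand, CTTTCC occurred in 47.8% of member windows and 26.6% of all, and CTCTTTCC, which contains it, in 18.8% and 3.12%. CCGGAAGT, the core of an ETS factor motif, occurred in 15.9% and 3.89%. The hexamer TATAAA occurred in 8.70% and 13.6%. These matches are descriptions of letters in the windows.

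Proteins of the stalk, which recruits elongation factors, did not all pass. Rplp2 was 74.2, 74.2 and 70.2 CPM in control, 85.7, 85.4, 82.2, 91.0 and 95.7 CPM with vehicle and 94.6, 86.6, 77.5 and 81.8 CPM with hAAM. It lay higher in every APAP liver and rose with vehicle (log2 fold change 0.27, FDR 0.0227), and had an estimate of 0.22 with hAAM (FDR 0.0732). Rplp0, the stalk's scaffold, had estimates of 0.15 and 0.18 (FDR 0.317 and 0.275), and Rplp1, the partner of Rplp2, 0.06 and 0.07 (FDR 0.65 and 0.626). Rplp1 overlapped in all groups, at 188 to 207, 191 to 219 and 191 to 231 CPM.

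Rpl5 and Rpl11 assemble with a small ribosomal RNA and bind Mdm2 when ribosome assembly is disturbed. Rpl5 had 155 to 179 CPM in control, 174 to 199 CPM with vehicle and 175 to 226 CPM with hAAM, with log2 fold changes of 0.19 (FDR 0.155) and 0.30 (FDR 0.0491). Its call with hAAM held in 1 of the 12 fits that left out a liver. Rpl11 had 112 to 133 CPM in control, 132 to 152 CPM with vehicle and 133 to 158 CPM with hAAM, with log2 fold changes of 0.26 (FDR 0.0484) and 0.27 (FDR 0.0614), and its call with vehicle held in 6 of 12. Rpl36a passed with hAAM (0.30, FDR 0.017) and not with vehicle (0.20, FDR 0.0602). With the counts of pseudogenes named after it added, its estimate with hAAM was 0.14 (FDR 0.155), whereas it was 0.33 (FDR 0.01) with sequence-matched pseudogenes.

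Minor paralogs did not share one pattern. Rpl3l, the striated muscle paralog of Rpl3, had 3 to 6 counts in control livers, 8 to 16 with vehicle and 9 to 11 with hAAM. It was called higher in both comparisons (FDR 0.0115 and 0.0201) at levels close to the detection limit. Rps27l, a paralog of Rps27 and a target of p53, had 34.7 to 43.7 CPM in control and at most 43.5 CPM in APAP livers, with estimates of 0.01 and 0.04 (FDR 0.965 and 0.773). Rps27 had 57.9 to 65.4 CPM in control, 60.5 to 69.9 CPM with vehicle and 61.5 to 74.6 CPM with hAAM, with estimates of 0.09 and 0.20 (FDR 0.447 and 0.108).

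Rpl13a, which also takes part in translational silencing of inflammatory mRNAs, was 7.72, 7.61 and 7.13 CPM in control, 6.02, 5.43, 5.81, 5.99 and 5.78 CPM with vehicle and 7.30, 7.20, 4.94 and 6.01 CPM with hAAM. It fell by 0.37 on the log2 scale with vehicle (SE 0.12, FDR 0.0365), without overlap, and had an estimate of -0.23 with hAAM (FDR 0.205), where 2 livers reached the control range. By total count alone these estimates were -0.02 (FDR 0.932) and 0.08. With the counts of its matched pseudogene added, the estimate with vehicle was -0.18 (FDR 0.144) and the call was lost. Of its exon bases, 35.4% are shared with other genes on the same strand. Rpl22, an RNA-binding protein of the large subunit with a paralog, Rpl22l1, was 43.2, 39.6 and 44.8 CPM in control, 42.3, 39.6, 40.3, 44.1 and 39.6 CPM with vehicle and 46.8, 44.9, 48.8 and 40.8 CPM with hAAM. Its groups overlapped, and its estimates were -0.05 and 0.09 (FDR 0.661 and 0.429); with scaling by total count alone the first was 0.30.

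Between hAAM-treated and vehicle-treated livers, no member was called, nor was any of the 22581 genes (0.00%; edgeR). At an unadjusted p under 0.05, 0 members differed, against 5.02% of all genes, and DESeq2 called 0 members. The median log2 fold change was 0.02 over members and 0.00 over all genes, from -0.20 for Rps10 to 0.14 for Rpl22, and 57 of 77 estimates were positive, against 50.9% of all genes. In 0 members did the groups not overlap, where 0.709% of all genes lay higher and 0.691% lower in all hAAM-treated livers. For the 74 members at a mean log2 CPM of 2 or more, the 95% intervals of the difference lay between 0.832-fold and 1.30-fold, with median limits of 0.901-fold and 1.15-fold. The smallest p belonged to Rpl22, Rpl36a and Rps27, with log2 fold changes of 0.14 (FDR 0.966), 0.11 (FDR 0.969) and 0.12 (FDR 0.969). Without both near-identical libraries the median was 0.03 and again 0 members were called. The sign of the median changed by total count (-0.02) and when vehicle replicate 3 (-0.01), hAAM replicate 1 (-0.02) or hAAM replicate 2 (-0.0042) was left out.

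Levels per length spanned a wide range. By counts of the genes' own rows, the highest in control livers were Rplp1 at 401 ± 20.4, Rps2 at 230 ± 11 and Rplp0 at 190 ± 7.06 CPM per kb of exon (SD, n = 3). The ranges of these 3 genes did not overlap. The median of the 74 members above the level limit was 52.7. In control livers, matched pseudogene rows held 58.7% of the joint counts for Rps2 and 54.4% for Rps6. For Rplp1 and Rplp0 they held 0.271% and 8.51%. Levels with those rows added are not given, so the ranks hold for own rows only. The lowest own-row levels were those of Rpl3l at 0.0452 ± 0.0235, Rpl24 at 0.750 ± 0.124 and Rps10 at 0.849 ± 0.135 CPM per kb, and the last pair overlapped. For Rpl24 and Rps10, 95.3% and 93% of the joint control counts lay in matched pseudogene rows, so their low ranks depend on how reads were assigned. Rps2, a protein of the mRNA entry channel, had estimates of 0.02 and 0.00 against control (FDR 0.86 and 0.992). The union of annotated exons served as the length, so genes with long annotated transcripts get lower values.

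Reads could also be assigned to pseudogenes. Of the pseudogene rows, 520 matched 70 members by sequence (at least 90% identity over at least 100 bases and 50% of the pseudogene). They held 26.4% of the joint counts of members and matched rows, between 25.9% and 27.4% in every liver. The median share per member was 15.9%, and 23 members had at least 25%. For Rpl24, a protein of the bridge between subunits, the gene's own row held 32 to 63 counts per liver and 95.5% of the joint counts lay in 3 pseudogene rows. For Rps10, which lies at the mRNA entry of the small subunit, the share was 94.2%, and for Rpl23a, at the tunnel exit, 83.3%. Rpl15, Rpl35a, Rps2 and Rps6 followed with 68.4%, 62.1%, 58.8% and 54.2%. Rpl24, Rps10 and Rpl13a also share 47%, 28.7% and 35.4% of their exon bases with overlapping genes, and how reads of such bases were counted is not given.

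**Figure D4:**
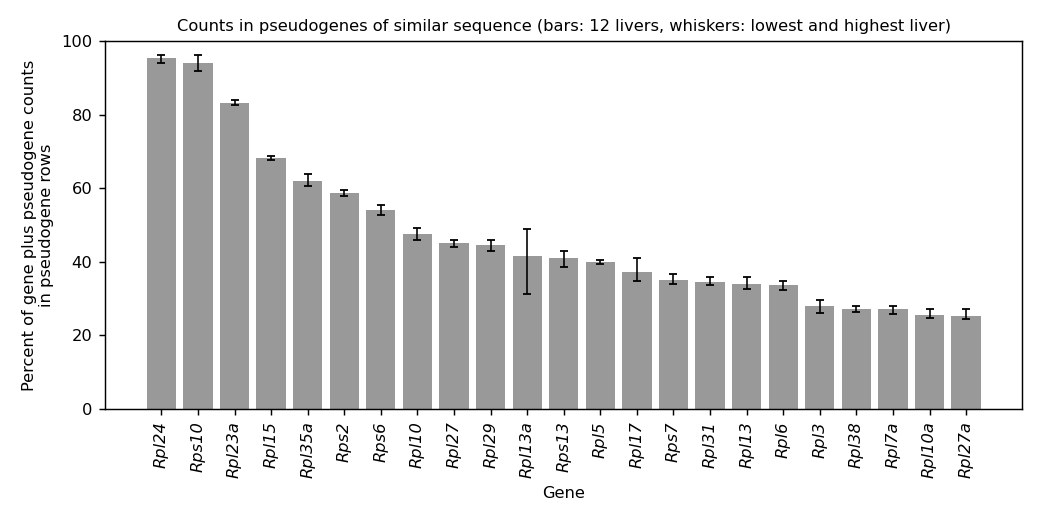
Percent of the joint counts of a member and its sequence-matched pseudogenes that lie in the pseudogene rows, over all 12 livers, for the 23 members with at least 25%; whiskers give the lowest and highest liver. Rpl24 and Rps10 exceed 90%, and Rpl13a varies most between livers, from 31.4% to 48.9%.

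With the matched counts added, 27 members were higher with vehicle and 25 with hAAM and 0 were lower, against 23 and 20 higher from their own rows. They are 35.1% and 32.5% of members, where 30.1% and 20.7% of all genes were called in either direction in that fit. Rps10, at 1.72 to 2.31 CPM in control and 1.22 to 2.41 CPM in APAP livers, had estimates of 0.00 and -0.19 from its own row (FDR 0.991 and 0.575). With matched rows added its log2 fold changes were 0.31 (FDR 0.0106) and 0.26 (FDR 0.0355). Rpl24 had estimates of 0.03 and 0.12 alone and 0.11 in both when added (FDR 0.381 and 0.417), and Rpl23a 0.06 and 0.17 alone and 0.11 and 0.19 when added (FDR 0.345 and 0.139). Among the 490 matched rows tested, 52 were higher and 12 lower with vehicle (median 0.15) and 56 and 9 with hAAM (median 0.17). The higher rows are 10.6% and 11.4% of those tested, below the 15.0% of all genes with vehicle and near the 10.7% with hAAM.

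Other genes of the pathway were described by 7 lists, chosen with earlier results of these data known. Of 8 ribosomal proteins outside the symbol pattern, Rpl22l1, the paralog of Rpl22, rose with vehicle (0.32, FDR 0.0239) and with hAAM (0.37, FDR 0.023). The other seven did not pass, among them Rpsa (0.24 and 0.28), Rack1 (0.30 and 0.28), Fau (0.19 and 0.18), Rps3a1 (0.12 and 0.23), Rpl7l1 (-0.21 and -0.17) and Rpl36al (-0.21 and -0.26). By total count 6 and 5 of the 8 were higher, where 38.2% and 29.0% of all genes were, and the signs of Rpl7l1 (0.14 and 0.14) and Rpl36al (0.13 and 0.06) turned. Of the 77 mitochondrial ribosomal proteins, which serve the ribosome inside mitochondria, 19 were lower and 1 higher with vehicle, and 13 lower and 1 higher with hAAM, where 14.8% and 9.96% of all genes were lower. Their medians were -0.12 and -0.13, and this direction flipped by total count, with medians of 0.22 and 0.18 and 28 higher and 1 lower with vehicle and 17 and 1 with hAAM, where 38.2% and 29.0% of all genes were higher. Relative to the median of all genes they lay at -0.13 and -0.14 by total count. Without both near-identical libraries 15 and 10 were lower, where 30.0% and 19.6% of all genes were called in either direction. Mrpl38 had the largest fall, from 50.2 ± 4.27 CPM in control (SD, n = 3) to 30.7 ± 1.64 (n = 5) and 29.3 ± 3.41 CPM (n = 4), with edgeR FDRs of 0.000331 and 0.000516, and it was the gene called lower by total count (-0.36 and -0.48). With TMM Mrpl23 was the gene that rose (0.37 and 0.47).

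Of 29 ribosome biogenesis genes, 5 were higher and 2 lower with vehicle, and 2 and 2 with hAAM. The higher genes are 17.2% and 6.9% of the list, where 15.0% and 10.7% of all genes were higher. By total count 19 and 14 were higher and 0 lower, where 38.2% and 29.0% of all genes were higher and 4.92% and 3.46% lower. Relative to the median of all genes under that scaling, the list's median lay at 0.11 and 0.06. Ncl, nucleolin, rose in both (0.49, FDR 0.00739, and 0.42, FDR 0.0242), as did Polr1a, the catalytic subunit of RNA polymerase I (0.26 and 0.24). Nhp2, Pes1 and Rrp9 passed with vehicle and not with hAAM. Nop16 and Rrs1 fell in both and by total count had estimates of -0.03 and -0.02 with vehicle that did not pass (FDR 0.808 and 0.897). Of 6 elongation factors, Eif5a rose with vehicle (0.29, FDR 0.039), and none passed with hAAM, while Eef1a1 had estimates of -0.18 and -0.01, which turned to 0.16 and 0.28 by total count. Under that scaling 4 of the 6 were higher in each comparison, and their median lay 0.01 and 0.09 above that of all genes. Of 10 other TOP mRNAs, Hnrnpa1 (0.73 and 0.74) and Npm1 (0.41 and 0.54) rose in both. By total count 9 and 8 were higher, and their median lay 0.06 and 0.08 above that of all genes. Of 7 snoRNA host genes, Snhg1 rose in both (0.74 and 0.63). By total count 6 and 3 of them were higher, and their median lay 0.22 and 0.23 above that of all genes.

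Of 12 regulators of ribosome supply, 2 were higher and 4 lower with vehicle, and 1 and 4 with hAAM, where 15.0% and 10.7% of all genes were higher and 14.8% and 9.96% lower. By total count 4 and 2 were higher and 0 lower, and the list's median lay 0.21 and 0.23 under that of all genes on the log2 scale. Myc, which drives ribosomal gene transcription, rose from 6.56 ± 4.14 CPM in control (SD, n = 3) to 18.7 ± 5.64 with vehicle (n = 5; edgeR log2 fold change 1.51, FDR 0.00834) and 17.4 ± 3.79 CPM with hAAM (n = 4; 1.41, FDR 0.0195). Eif4ebp1 rose with vehicle (0.50, FDR 0.0314). Larp1, the TOP mRNA-binding repressor, fell by 0.55 (FDR 0.00206) and 0.43 (FDR 0.0134), Eif4ebp2 by 0.61 and 0.53, and Tsc2, an mTOR inhibitor, by 0.31 and 0.24. Rps6kb1 fell by 0.31 with vehicle (FDR 0.0158), and Rptor by 0.26 with hAAM (FDR 0.0259). By total count none of these 5 genes passed, and the sign turned for Tsc2 (0.04 and 0.06), Rps6kb1 (0.04 with vehicle) and Rptor (0.04 with hAAM). Mtor had estimates of -0.01 and -0.05, which turned by total count to 0.33 (edgeR FDR 0.0182) and 0.25 (FDR 0.0858).

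**Figure D5:**
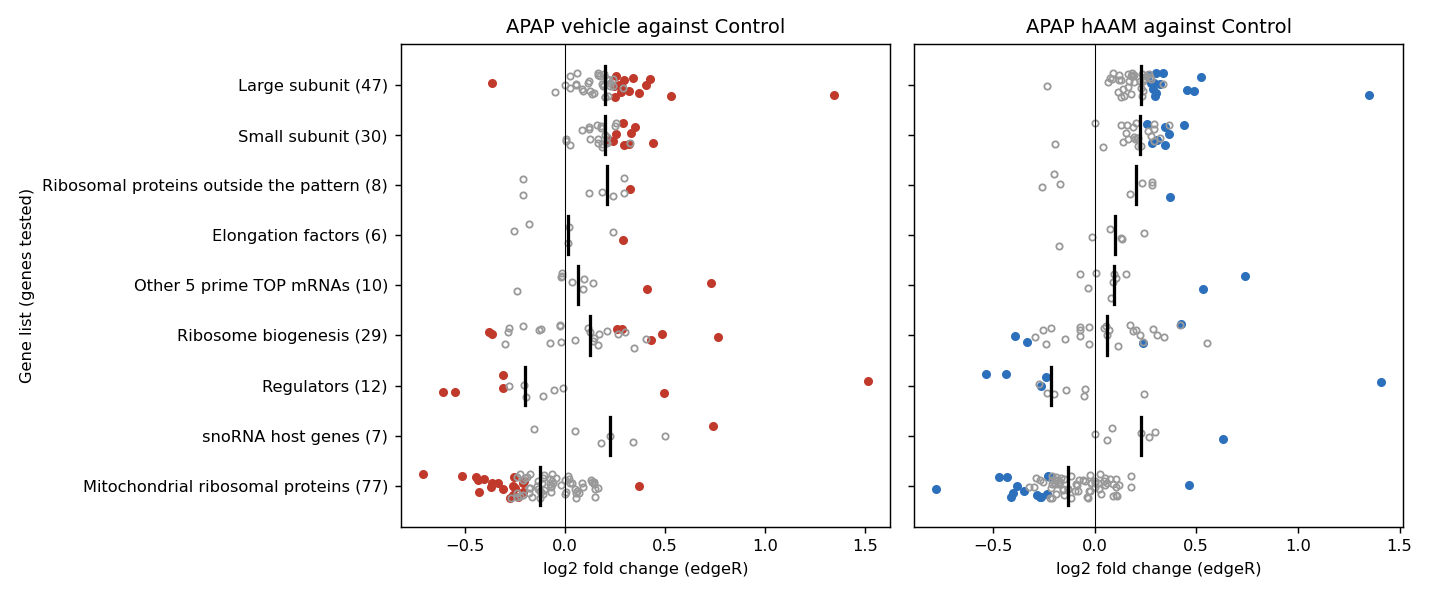
Log2 fold change against control of every tested gene of the members and 7 lists, with vehicle (left) and hAAM (right); filled points passed an FDR of 0.05 and bars mark medians. Medians of both subunits lie at 0.20 to 0.23, and that of the 77 mitochondrial ribosomal proteins at -0.12 and -0.13; by total count the latter turned to 0.22 and 0.18.

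Of the markers of other cells, those of monocyte-derived macrophages moved with the same groups. In bulk tissue, more cells of a type and more RNA per cell cannot be told apart. The 6 markers of monocyte-derived macrophages summed to 80.7 to 89.5 CPM in control, 139 to 261 CPM with vehicle and 139 to 318 CPM with hAAM, and 4 of 6 were higher in each comparison, where 15.0% and 10.7% of all genes were higher and 14.8% and 9.96% lower. Vehicle replicate 3 and hAAM replicate 4, the livers with the least ribosomal protein mRNA of their groups, also had the lowest sums, at 139 CPM each. None of these markers was at 0 in any liver. The sums of Kupffer cell, neutrophil, B cell, endothelial, stellate, cholangiocyte and erythroid markers overlapped between control and each APAP group. Of these lists, 1 of 5 Kupffer cell and 1 of 4 stellate markers were higher in each comparison, and 1 of 4 endothelial markers was higher with vehicle. Of 3 erythroid markers, 2 were higher and 1 lower with vehicle, and 1 was lower with hAAM. Hba-a1, a globin chain, was at 21.6 to 62.1 CPM in control, 77.5 to 841 CPM with vehicle and 77.5 to 286 CPM with hAAM, whereas Alas2, the erythroid enzyme of haem synthesis, was at 64.5 to 88.2, 16.6 to 30 and 24.4 to 44.1 CPM. Of 5 T cell markers 1 was lower with vehicle, and their sums were at 2.33 to 3.30 CPM in control, 1.08 to 1.94 CPM with vehicle and 1.5 to 2.87 CPM with hAAM. Vehicle replicate 5 stood apart in B cell (59.7 CPM) and erythroid markers (1400 CPM). The part of these cells in the levels of members was not tested.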

How the data were processed

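Bulk RNA sequencing of 12 mouse livers was analysed in 3 groups taken from the sample labels. Per the paper's methods, the authors trimmed paired-end reads with Cutadapt 4.6, aligned them to GRCm38 with STAR 2.7.1a and used summarizeOverlaps for read counting. The deposited table holds these unnormalized counts for each Ensembl gene. Counting mode, strand and the handling of reads with several matches are not given in the sources used here. The labels' protocol names 14 libraries, and 12 samples are listed. The replicates are separate mice.

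Symbols, gene types, coordinates and exon lengths came from GENCODE M21 (GRCm38), which named 24128 of 24187 genes. Tests were run in edgeR 4.0.16 (R 4.3.3), with limma 3.58.1 and DESeq2 1.42.0 as alternatives. After filterByExpr by group and TMM scaling, one quasi-likelihood model without covariates was fitted to all 12 livers, with two-sided p-values and Benjamini-Hochberg adjustment over 22581 genes. Standard errors were derived from the F statistic. The tests were tried on simulated data. Pseudogene transcripts were matched to members with BLAST+ 2.17.0. Members and lists were chosen with earlier results of these data known.

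Members were named if they had one of the 6 largest rises or falls against control at a mean log2 CPM of 2 or more (only members with an estimate in that direction counted), one of the 3 smallest p-values between treatments, or one of the 3 highest or lowest levels per length or the 3 largest pseudogene shares. Stalk proteins, minor paralogs, Rps6, Rpl5, Rpl11 and ribosomal proteins outside the pattern were added, and every other name was chosen after its values were seen. Alternatives changed the tool, scaling, filter, samples and pseudogene counts. A few genes are counted in the totals and not reported here by name.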

Additional observations from a re-analysis of the deposited data

Results flagged for a closer look

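The ratio of summed small to large subunit CPM was 0.635 in vehicle replicate 4, apart from the other 4 vehicle-treated livers, which lay between 0.630 and 0.631. Its gap took up 0.867 of the range of that group. The control livers spanned a wider range, 0.616 to 0.632. Of 52 groups of values searched for such a lone liver, 1 was found, and chance alone finds about 1 in 20.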

How the results depend on the processing

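Across 26 alternatives, the median log2 fold change of members stayed positive against control. Leaving out each liver gave 4 to 32 members called with vehicle (main 24) and medians of 0.17 to 0.25, and 3 to 34 with hAAM (main 20) and medians of 0.19 to 0.28, with the lowest counts without control replicate 3. Shares of all genes for the lowest of these counts stand with each comparison above. Scaling by total count called 74 and 73 (96.1% and 94.8% of members, against 43.2% and 32.5% of all genes in either direction). The medians were then 0.55 and 0.53. DESeq2 called 36 and 37 (46.8% and 48.1%, against 34.0% and 25.8%). Without both near-identical libraries, a choice made after seeing the data, DESeq2 called 43 and 43 (55.8% each, against 34.6% and 25.4%). With hAAM, 32 were called with at least 10 counts in every sample (42.1%, against 23.0%). In edgeR without both near-identical libraries 32 were called with hAAM (41.6%, against 19.6%), and with only the compared groups 2 (2.60%, against 12.7%). Medians above those of all genes were 0.19 and 0.21 with TMM and 0.20 and 0.22 by total count.

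Replicate numbers recur across groups. Correlations of the 10 same-numbered pairs ran from -0.591 to 0.496, with 2 pairs over 0.1, so no steady pairing of the livers was seen. Correlations of single libraries cannot exclude a shared batch. With the replicate block 8 members were called with vehicle (10.4% of members, against 18.8% of all genes in either direction). With hAAM 9 were called in that fit (11.7%, against 13.1%).

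Between treatments, the median was -0.022 by total count and -0.017 to 0.066 when livers were left out, reversing without vehicle replicate 3, hAAM replicate 1 or hAAM replicate 2, and 0 members were called throughout.

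Signs changed for some members, and the cause was not tested. By total count, Rpl22 with vehicle was 0.30, and with hAAM Rpl13a was 0.082 and Rps10 0.13. Rps10 with hAAM was 0.26 with named and 0.26 with sequence-matched pseudogene counts. Rps10 with vehicle was -0.00061 with DESeq2, -0.0018 with its size factors in edgeR and -0.00052 with the block. Rps27l with vehicle was -0.0020 with DESeq2, -0.0018 with its size factors and -0.0027 with DESeq2 without the near-identical pair. Rps2 with hAAM was -0.0038 with DESeq2, -0.0038 with its size factors and -0.0012 with limma. Leaving out livers gave -0.11 to 0.13 for Rpl24, -0.081 to 0.14 for Rps10 and -0.077 to 0.088 for Rps27l with vehicle, and -0.014 to 0.22 for Rpl24, -0.051 to 0.044 for Rps2 and -0.041 to 0.12 for Rps27l with hAAM.

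Mean large subunit sums in control, vehicle and hAAM livers were 4313, 6258 and 6191 by total count, 5878, 6679 and 6822 CPM with named and 6923, 7864 and 8045 CPM with sequence-matched pseudogene counts, and 4774, 5470 and 5560 CPM without the most abundant gene. Small subunit sums were 2690, 3950 and 3904, then 3666, 4228 and 4293, then 4391, 5008 and 5093, and 2764, 3245 and 3313 CPM without the most abundant gene. The mean ratio of small to large was 0.634 in control, 0.637 in vehicle and 0.633 in hAAM livers with sequence-matched pseudogene counts, and 0.579, 0.593 and 0.596 without the most abundant gene.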
